A study of Mus musculus with 24 samples.

Results

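The nuclear genes of the mitochondrial respiratory chain were followed across mouse embryo fibroblasts (MEFs) of both genotypes under nutrient and endoplasmic reticulum (ER) stress. They were taken as every gene on the array whose symbol starts with Nduf and then a, b, c, s or v, with Uqcr, with Atp5, or with Cox and a digit between 4 and 8, together with Sdha, Sdhb, Sdhc and Sdhd. This gave 87 of the 19057 genes that had a symbol on the array. The symbols were matched by this pattern and not by a measured value, though the pattern was set with earlier results of these data known. A gene with several probes was read from the probe whose log2 signal was highest on average over the 24 arrays. By general knowledge of the proteins, 43 belong to complex I (6 core subunits, 29 accessory subunits and 8 assembly factors), 4 to complex II, 7 to complex III, 17 to complex IV and 16 to complex V. Ndufa4 and Cox7a2l were counted with complex IV. Ndufs5-ps, by its name a pseudogene of Ndufs5, was counted with the accessory subunits of complex I.

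The KO cells are labelled Siah1a-/-::Siah2-/-, for the genes of the ubiquitin ligases Siah1a and Siah2; the control cells (WT) came from wild-type mice. In the legend of the study's qPCR panels Siah1a is heterozygous, and the name KO follows the labels of the arrays. Cells of both genotypes were deprived of oxygen (OD, 1% oxygen for 12 h), of glucose (GD, 12 h) or of both (OGD, 12 h), were treated for 6 h with thapsigargin (TG, 1 µM), which empties the calcium store of the ER, or with tunicamycin (TM, dose of the array cells not stated), which blocks N-glycosylation, or were left untreated. Each of the 12 groups had 2 Illumina Mouse-6 BeadChip arrays, and nothing says that they came from separate cultures or from more than a single line of each genotype, so p-values measure the spread between these arrays. Siah1a was lower in KO than in WT cells, by -2.35 to -3.09 on the log2 scale over the 6 conditions (all 6 passed the test), and Siah2 differed by -0.40 to -1.95 (3 of 6 passed). By the array names in the study's heat map, which were read from its picture and are not in the sample labels, the untreated and GD arrays of both genotypes and the WT OD and WT OGD arrays lay on a single chip pair, and all TG, TM, KO OD and KO OGD arrays on another. On that reading every comparison of TG or TM with untreated cells crosses the chip pairs. So does that of KO OD or KO OGD with untreated KO cells, and of KO with WT cells under OD or OGD. In these, chip and condition cannot be told apart. The KO response to OD or OGD crosses the chip pairs and the WT response does not, so their difference holds the chip difference too.

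The respiratory chain passes electrons from NADH through complex I, or from succinate through complex II, to ubiquinone, on through complex III and cytochrome c to complex IV, and there to oxygen. Complexes I, III and IV pump protons across the inner membrane, and complex V, the ATP synthase, uses the gradient to make ATP. Most subunits are encoded in the nucleus and assemble with a few encoded in mitochondrial DNA, and oxygen-starved cells are known to lower the entry of carbon into this chain and to exchange some complex IV isoforms.

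Of the 87 genes, 80 were measured, meaning that their probe rose above the background level of 7.88 (log2 signal) on at least 1 array. The 7 others stayed below it on every array. These were the complex I core subunit Ndufs1, the complex I assembly factor Ndufaf6, the Rieske protein Uqcrfs1 of complex III, and the tissue isoforms Cox6b2, Cox7b2, Cox8b and Cox8c of complex IV, which are known from testis or from heart and skeletal muscle. A probe below background can also fail to bind its transcript, so these are values of the probes and not of the proteins. In all, 75 genes were above background on all 24 arrays. Sdha, the flavoprotein of complex II, and Cox4i2, an isoform of complex IV subunit 4 known from lung, passed only through a single array each and were above background on both arrays of no group, so their comparisons carry no weight.

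Most of these genes gave strong signals, and most held their level across the 12 groups. The mean log2 signal of 85.0% of the 80 genes lay above the median of all 12935 measured genes. The distance between the highest and the lowest of the 12 group means had a median of 0.68 on the log2 scale for the 80 genes and of 0.80 for all measured genes. It reached 2-fold for 15 of the 80 genes (18.8%) and for 37.4% of all measured genes. Atp5b, the catalytic beta subunit of complex V, had the narrowest range, with group means between 15.82 and 15.95. Its probe was also the brightest of the 80 genes, and whether so bright a probe could register a change was not tested. Cox6a2, the heart and skeletal muscle isoform of complex IV subunit 6A, spanned the widest range, with group means of 10.43 in KO TG cells and 7.56 in untreated KO cells at its ends, followed by the complex III hinge protein Uqcrh, which spanned 1.81. By mean log2 signal over the arrays, the brightest probes were those of Ndufa13 (14.82) in complex I, Sdhc (13.09) in complex II, Uqcr10 (14.68) in complex III, Cox5b (15.10) in complex IV and Atp5b (15.87) in complex V, and a brighter probe is no measure of more transcript between genes. The dimmest above background were those of Ndufaf3 (8.37), Sdhd (10.33), Uqcrq (9.11), Cox7a1 (7.91) and Atp5k (8.52), in the same order of complexes. Duplicate arrays differed by a median of 0.11 to 0.24 for the 80 genes, according to group.

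**Figure D1:**
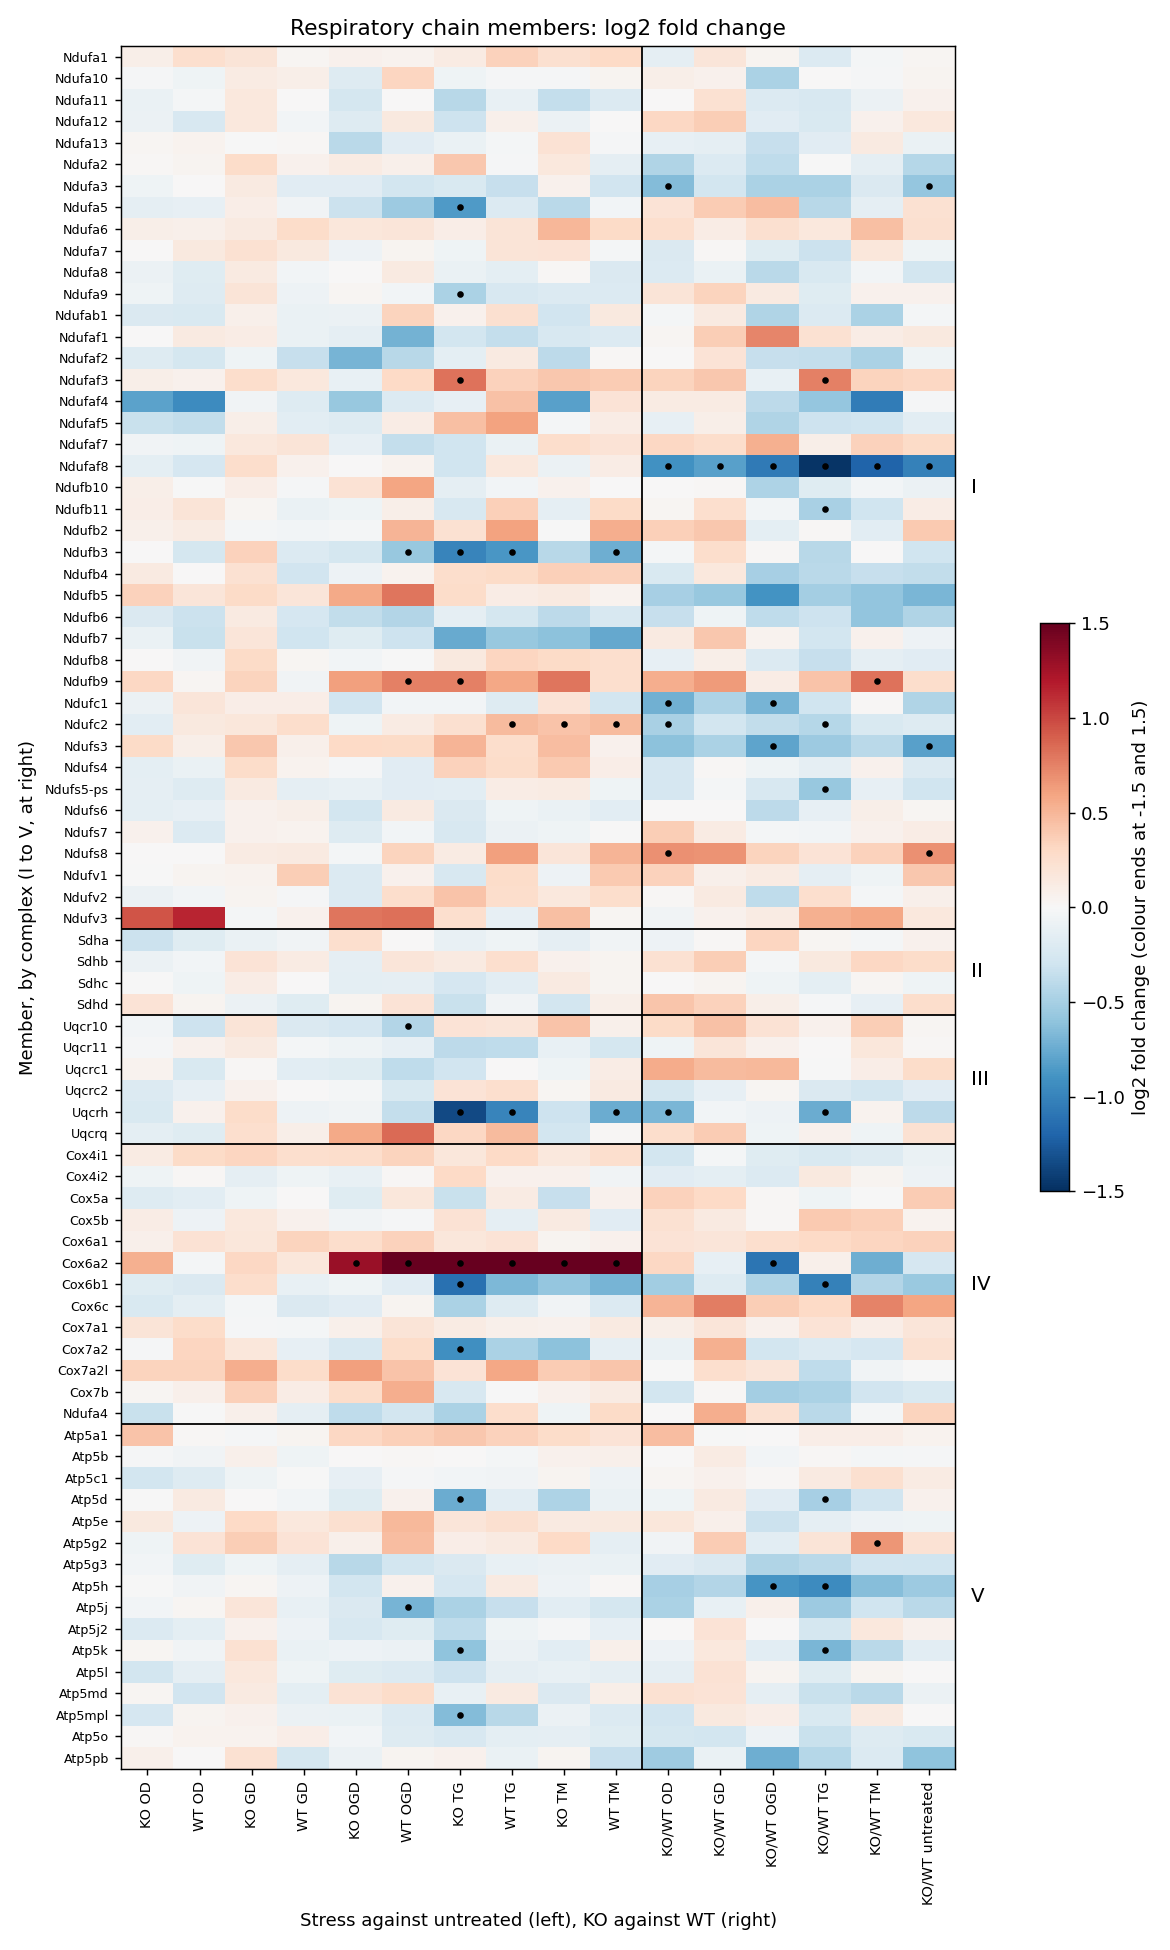
Log2 fold change of each of the 80 measured genes (rows, by complex I to V) in 10 comparisons of a stress with untreated cells (left block) and 6 comparisons of KO with WT cells (right block); black dots mark an adjusted p under 0.05. Most cells are pale, Cox6a2 is red under OGD, TG and TM in both genotypes, and Ndufaf8 is blue in all 6 comparisons of KO with WT.

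Cox6a2 rose under OGD, TG and TM in both genotypes and was the only 1 of the 80 genes to be called in more than 1 comparison of a stress with untreated cells. A call needed an adjusted p under 0.05 (limma, Benjamini-Hochberg over all kept probes) and at least a 2-fold difference. The TG arrays gave log2 signals of 10.46 and 10.40 in KO cells and 10.30 and 10.39 in WT cells. The TM arrays gave 9.42 and 9.07 in KO cells and 10.16 and 9.78 in WT cells. The OGD arrays gave 8.55 and 9.15 in KO cells and 9.48 and 10.43 in WT cells. All 12 of these arrays lay above the untreated arrays, at 7.52 and 7.60 in KO cells and 7.85 and 7.78 in WT cells, which were all below background. The differences were +2.87, +1.68 and +1.29 in KO cells under TG, TM and OGD and +2.53, +2.16 and +2.14 in WT cells (SE 0.28 each). Since the untreated arrays were below background these are bounds, of at least 5.86-fold, 2.58-fold and 1.96-fold in KO cells and at least 5.53-fold, 4.27-fold and 4.22-fold in WT cells. The adjusted p values (limma) were 7.86e-06, 0.002 and 0.0255 in KO cells and 5.18e-05, 0.000287 and 0.000321 in WT cells. The KO OGD call is the weakest of the 6. Leaving out KO OGD replicate 2 gave +0.99, and leaving out untreated KO replicate 1 or replicate 2 gave +1.25 and +1.33, and the call was lost each time (adjusted p of 0.324, 0.147 and 0.155, limma).

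Neither oxygen nor glucose deprivation alone gave such levels of Cox6a2. The OD arrays gave 8.32 and 7.87 in KO cells and 7.78 and 7.77 in WT cells, and the GD arrays 8.06 and 7.67 in KO cells and 7.74 and 8.23 in WT cells, so these 8 arrays lay near the background level. The WT OGD and untreated WT arrays shared a chip pair. Under TG and TM the KO cells could also be set against KO OD cells of the same chip pair, a comparison chosen after the data were seen, and Cox6a2 differed there by +2.33 (SE 0.28, adjusted p = 5.06e-05, limma) under TG and by +1.15 (adjusted p = 0.0239) under TM. In the list of muscle markers Des and Myog, 2 of 6 genes, were above background on both arrays of some group and Actn2, Ckm, Myod1 and Tnni1 in none, and the summed signal of the list ran between 1164 (untreated KO) and 1263 (KO TG). Myog, a muscle transcription factor, had 8.50 and 8.08 on the WT OGD arrays and 7.62 and 7.99 on the untreated WT arrays. On the TG and TM arrays, where Cox6a2 was also high, Myog lay between 7.80 and 8.02 in KO cells and between 7.67 and 7.81 in WT cells, and in untreated KO cells it had 7.83 and 7.68. The ubiquitous isoform Cox6a1 passed in no comparison, with differences of +0.04 to +0.35 between stressed and untreated cells.

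Under TG, Uqcrh fell in both genotypes, together with Ndufb3, an accessory subunit of complex I. The TG arrays of Uqcrh gave 12.83 and 12.61 in KO cells and 13.36 and 13.57 in WT cells. The untreated arrays gave 14.09 and 14.05 in KO cells and 14.29 and 14.62 in WT cells, so stressed and untreated arrays did not overlap in either genotype. The difference was -1.35 in KO cells (SE 0.19, adjusted p = 0.000232, limma) and -0.99 in WT cells (adjusted p = 0.00414, limma); the first was called and the second missed the 2-fold threshold. Ndufb3 had TG values of 11.37 and 11.18 in KO cells and 11.59 and 11.80 in WT cells, against 12.28 and 12.25 in untreated KO cells and 12.37 and 12.76 in untreated WT cells. It fell by 0.99 in KO cells (SE 0.15, adjusted p = 0.000418, limma) and by 0.87 in WT cells (adjusted p = 0.00189, limma). Cox6b1, the complex IV subunit that faces the intermembrane space, had 13.26 and 12.89 on the KO TG arrays and 14.33 and 14.07 on the untreated KO arrays. It fell by 1.12 in KO cells (SE 0.20, adjusted p = 0.0018, limma), and its second bright probe fell by 1.03 there (adjusted p = 0.00764). In WT cells Cox6b1 had 14.04 and 14.14 under TG and 14.74 and 14.78 in untreated cells, a difference of -0.67 that did not pass (adjusted p = 0.0595, limma). The Cox6b1 call in KO cells fell under the 2-fold threshold without KO TG replicate 2 (-0.94) and without untreated KO replicate 1 (-0.99), at adjusted p values of 0.032 and 0.0346.

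The promoter windows of these 3 genes are shown because all 3 fell under TG in KO cells. Each runs 5′ to 3′ from 250 bases before to 50 after the annotated start (RefSeq, GRCm38.p6), at chr4:116075021-116075320 on the minus strand for Uqcrh, chr7:30626065-30626364 on the minus strand for Cox6b1 and chr1:58586147-58586446 on the plus strand for Ndufb3. Capitals mark matches on either strand to CCGGAAG, the core of sites for ETS factors such as GABP, or to CCAAT, the box bound by NF-Y.
Uqcrh: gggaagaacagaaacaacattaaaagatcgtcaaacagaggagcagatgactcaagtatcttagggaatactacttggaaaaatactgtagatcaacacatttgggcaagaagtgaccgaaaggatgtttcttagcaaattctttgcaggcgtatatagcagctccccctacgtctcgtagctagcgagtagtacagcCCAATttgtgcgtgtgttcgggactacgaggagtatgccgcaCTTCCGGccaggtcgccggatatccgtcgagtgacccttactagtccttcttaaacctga
Cox6b1: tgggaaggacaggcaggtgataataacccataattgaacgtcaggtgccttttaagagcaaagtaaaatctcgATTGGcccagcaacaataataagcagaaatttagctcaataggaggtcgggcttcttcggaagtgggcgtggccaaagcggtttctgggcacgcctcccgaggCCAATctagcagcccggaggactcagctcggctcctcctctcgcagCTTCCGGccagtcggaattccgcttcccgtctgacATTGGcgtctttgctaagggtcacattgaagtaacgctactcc
Ndufb3: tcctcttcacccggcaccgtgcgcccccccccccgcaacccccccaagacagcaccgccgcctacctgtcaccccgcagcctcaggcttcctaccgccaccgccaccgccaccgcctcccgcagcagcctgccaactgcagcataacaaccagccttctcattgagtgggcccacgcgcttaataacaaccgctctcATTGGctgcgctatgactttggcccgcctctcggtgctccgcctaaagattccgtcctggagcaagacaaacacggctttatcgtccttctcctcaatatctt
Uqcrh and Cox6b1 each held 1 CCGGAAG match, and all 3 windows held a CCAAT match. Among the 77 windows found for 72 of the 87 genes, 23.4% held CCGGAAG, and so did 8.86% of all 32851 windows of the same length. The motif of NRF1, a regulator of respiratory genes, searched as GCGC, then A and any base, then GCGC, was in 24.7% of the 77 windows and in 4.60% of all windows. CCAAT was in 42.9% and 37.4%. The matches are letters in these windows and no measure of binding.

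Beside these genes, TG in KO cells lowered 6 more by less than 2-fold. They were Cox7a2, the ubiquitous isoform of complex IV subunit 7A (-0.92, SE 0.19), the complex I accessory subunits Ndufa5 (-0.85) and Ndufa9 (-0.48), and the complex V subunits Atp5d (-0.74), Atp5mpl (-0.65) and Atp5k (-0.60), the last of which averaged 7.91 under TG, close to background. Cox7a2 had 9.47 and 9.19 under TG and 10.24 and 10.25 in untreated KO cells. Genes also rose: the complex I assembly factor Ndufaf3 rose by 0.81 (SE 0.15, adjusted p = 0.00255, limma) and the accessory subunit Ndufb9 by 0.75 (adjusted p = 0.0451, limma). In all, 3 of the 80 genes passed as higher and 9 as lower under TG in KO cells. Of all measured genes 6.44% passed as higher and 5.55% as lower, and 5.55% were called in either direction, against 3 of the 80 called (Cox6a2, Uqcrh and Cox6b1). Without KO TG replicate 1 there were 5 calls. In WT cells under TG, 2 genes passed as higher and 2 as lower, where 4.17% and 3.69% of all genes did. They were Cox6a2 and Ndufc2, an accessory subunit of complex I (+0.48, SE 0.11, adjusted p = 0.0146, limma), and Uqcrh and Ndufb3. Only Cox6a2 was called there, against 3.97% of all genes. With the replicate number as a block the WT TG counts were 4 higher and 5 lower. The shares of all genes, here and below, are those of the main fit. None is given for an alternative fit, so its counts have no such share beside them. Without WT TG replicate 2 there were 2 calls, and without untreated WT replicate 1 there were 3.

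Against KO OD cells on the same chip pair, the KO TG cells gave -1.12 for Uqcrh (SE 0.19, adjusted p = 0.000959, limma), -1.0 for Ndufb3, -0.94 for Cox6b1 and -0.89 for Cox7a2, and all 4 passed. Atp5d (-0.73), Atp5k (-0.64) and Ndufa9 (-0.41) passed as lower there too. Beside Cox6a2, Ndufaf5 (+0.78), Ndufaf3 (+0.72), Ndufv2 (+0.53) and Ndufc2 (+0.40) passed as higher. Ndufa5, Atp5mpl and Ndufb9, which passed against untreated cells, lay closer to KO OD than to untreated KO cells. Their mean log2 signals were 12.95, 13.93 and 11.85 under TG and 13.66, 14.33 and 11.40 under OD. Untreated KO cells had 13.80, 14.58 and 11.09, and no pass against KO OD is claimed for these genes. Cox6a2 and Uqcrh were called in that comparison, 2 of the 80 genes, against 5.91% of all genes.

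In KO cells fewer of the genes passed under TM (2) than under TG (12), and in WT cells 4 passed under each. In WT cells Uqcrh had 13.88 and 13.51 under TM and 14.29 and 14.62 in untreated cells, and fell by 0.75 (SE 0.19, adjusted p = 0.0333, limma). Ndufb3 had 11.80 and 11.87 under TM and 12.37 and 12.76 in untreated WT cells, and fell by 0.73 (SE 0.15, adjusted p = 0.00915, limma). Neither passed under TM with background subtraction (adjusted p = 0.137 for Uqcrh and 0.084 for Ndufb3), or under TM or TG when only the arrays compared were fitted, where adjusted p was 0.186 and 0.0528 for Uqcrh and 0.161 and 0.0745 for Ndufb3 under TM and TG. Cox6a2 and Ndufc2 (+0.47, SE 0.11) rose. So 2 genes passed as higher and 2 as lower in WT cells, where 2.81% and 1.91% of all genes did, and 1 was called, against 2.66%. In KO cells Cox6a2 and Ndufc2 (+0.43, SE 0.11, adjusted p = 0.0375, limma) passed as higher and none as lower, where 3.65% and 2.80% of all genes did, and Cox6a2 was called, against 3.29%. Without KO TM replicate 2 there were 2 calls in KO cells. Uqcrh gave -0.31 and Ndufb3 -0.42 in KO cells under TM, and neither passed. With the replicate block 6 genes passed as higher and 4 as lower in KO cells, and 3 and 4 in WT cells. No share of all genes is given for that block. Against KO OD cells on the same chip pair, KO TM cells gave -0.08 for Uqcrh and -0.43 for Ndufb3, and neither passed. Ndufc2 (+0.58) and Uqcr10 (+0.47) passed there, as did Cox6a2. Of these only Cox6a2 was called, where 3.52% of all genes were.

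**Figure D2:**
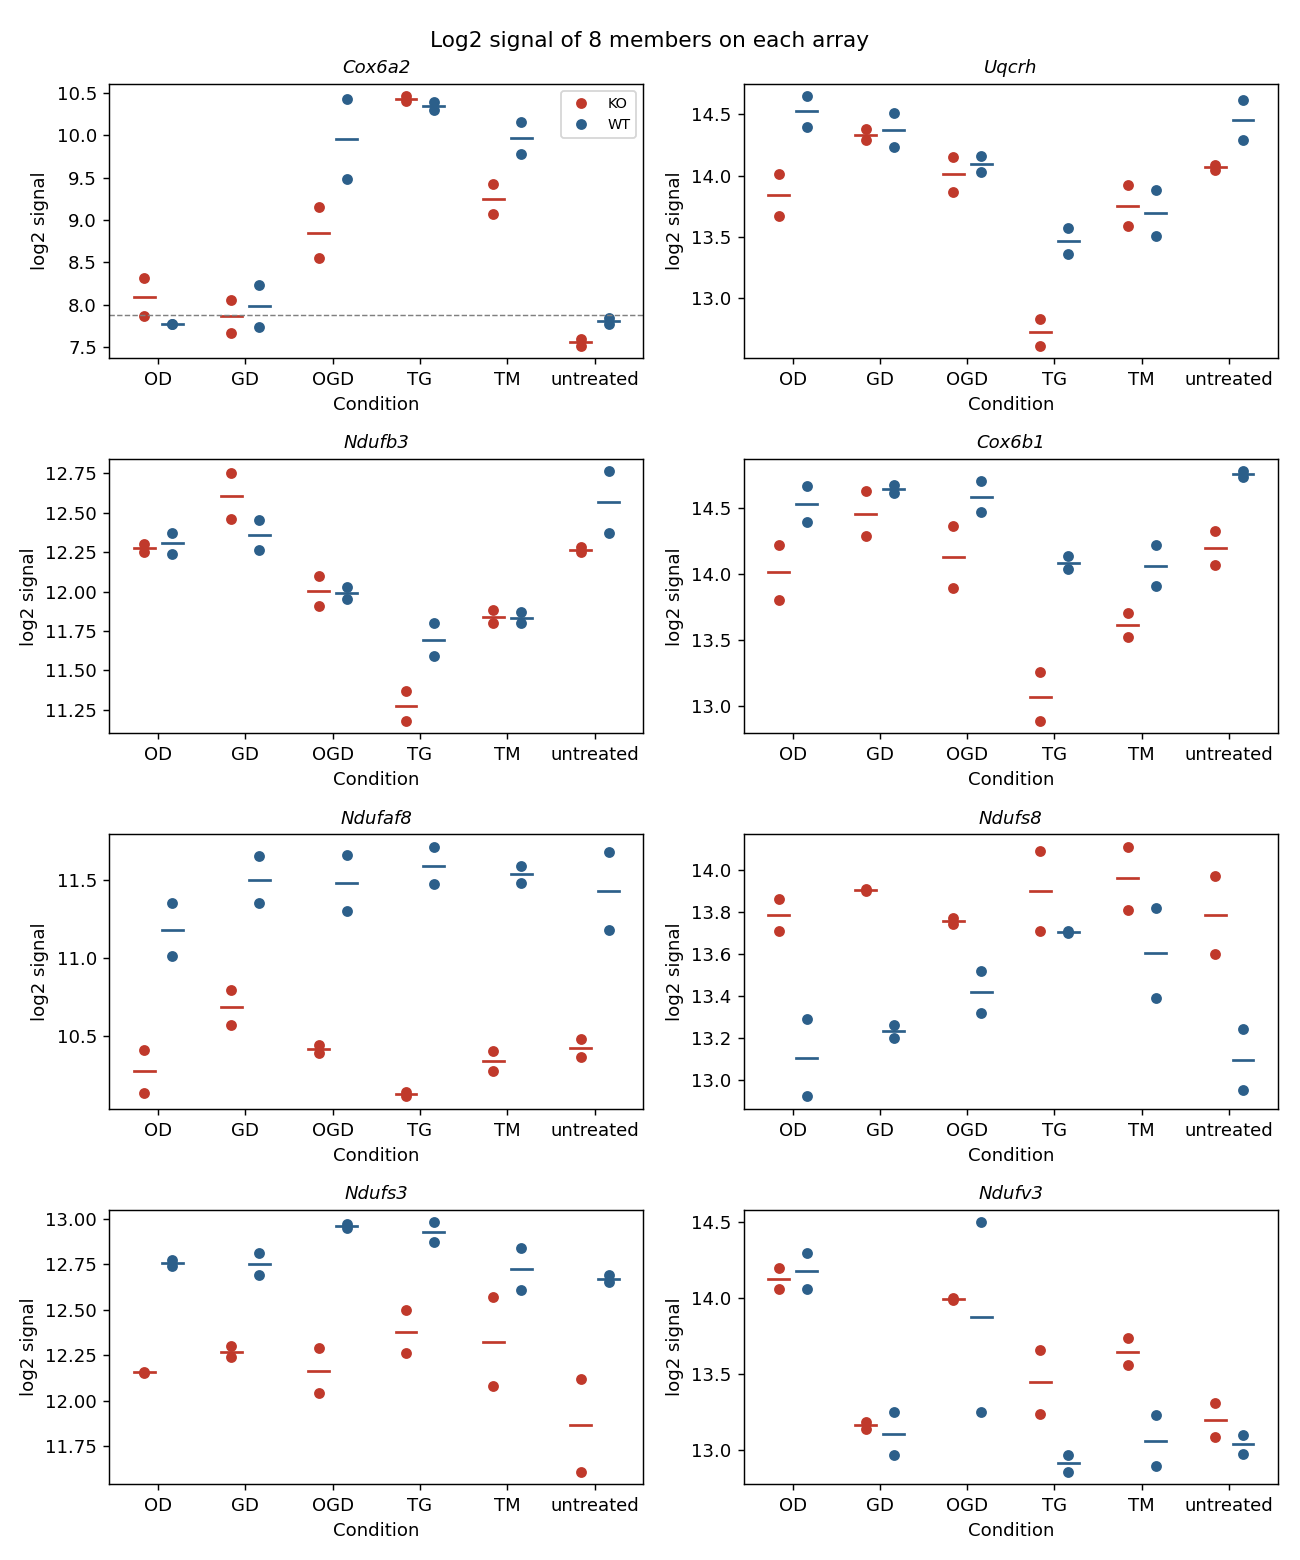
Log2 signal of 8 genes on each array by condition, with KO arrays (red) left of WT arrays (blue); points are arrays, bars the mean of 2 arrays, and the dashed line in the Cox6a2 panel the background level of 7.88. Cox6a2 lies above that line on every OGD, TG and TM array, Uqcrh, Ndufb3 and Cox6b1 are lowest on the KO TG arrays, and every KO array of Ndufaf8 lies below every WT array.

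Under OGD the WT cells moved 5 of the 80 genes. Cox6a2 and Ndufb9 passed as higher, where 4.25% of all genes did, and Ndufb3, the complex V stalk subunit Atp5j and the small complex III subunit Uqcr10 as lower, where 5.63% did. Ndufb9 had 11.61 and 11.58 under OGD and 10.91 and 10.76 in untreated WT cells, a rise of 0.76 (SE 0.22, adjusted p = 0.046, limma). Ndufb3 had 12.03 and 11.95 under OGD and fell by 0.57 (SE 0.15, adjusted p = 0.0237, limma). Atp5j fell by 0.70 (SE 0.18), while its second, dimmer probe gave +0.24, so the 2 probes disagree. Uqcr10 fell by 0.44 (SE 0.13), and its second probe gave -0.20. Only Cox6a2 was called, against 4.69% of all genes. The replicate block gave 5 higher and 5 lower. The duplicate WT OGD arrays correlated less than those of the other 11 groups (r = 0.954), and leaving out replicate 1 or replicate 2 gave 3 and 2 calls. In KO cells Cox6a2 alone passed and was called. Of all genes 1.54% passed as higher, 0.734% as lower and 1.35% were called. The replicate block gave 1 higher and 1 lower. Epithelial markers, of which Krt8, Krt18 and Krt19 (3 of 5) were above background, had a summed signal over the list of 4943 in WT OGD cells and 1195 in untreated WT cells, against 1361 in KO OGD and 977 in untreated KO cells. It was also high in WT OD cells, at 3829, where none of the 80 genes passed. Their part in the result was not tested. In such bulk RNA a change in the mix of cells and a change in RNA per cell cannot be told apart.

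No gene of the chain passed under oxygen deprivation alone. Of all measured genes 0.317% passed and 0.255% were called in WT cells, and 0.332% passed and 0.302% were called in KO cells. At an unadjusted p under 0.05 there were 3 of 80 genes in KO cells and 4 of 80 in WT cells (limma). Of all genes 3.7% and 5.2% had such a p. No alternative setting called any of the 80. The oxygen-linked genes that act on respiration from outside the chain, such as Pdk1 and Bnip3, did move in the same arrays: 5 of 10 in KO cells and 3 of 10 in WT cells passed as higher and were called. That list held known targets of hypoxia. Cox4i2, which low oxygen is known to induce in human cells, stayed near background, at 7.28 and 7.53 on the KO OD arrays and 7.28 and 7.88 on the WT OD arrays.

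The gene of the chain with the highest OD difference in both genotypes was Ndufv3, an accessory subunit of the NADH-binding arm of complex I. The OD arrays gave 14.06 and 14.20 in KO cells and 14.06 and 14.30 in WT cells, against 13.31 and 13.09 in untreated KO cells and 13.10 and 12.98 in untreated WT cells, without overlap. The OGD arrays gave 14.00 and 13.99 in KO cells and 14.50 and 13.25 in WT cells, the second of which is close to the untreated values. The OD difference was +0.94 in KO cells (SE 0.27, unadjusted p = 0.00375, adjusted p = 0.543, limma) and +1.14 in WT cells (SE 0.27, unadjusted p = 0.00078, adjusted p = 0.167, limma), and neither passed. A second bright probe of Ndufv3 gave +0.93 in KO cells and +1.07 in WT cells. The OGD differences were +0.80 in KO cells and +0.83 in WT cells (adjusted p = 0.187 and 0.0764, limma). Under GD the differences were -0.03 in KO cells and +0.07 in WT cells. The lowest OD difference was that of the assembly factor Ndufaf4, at -0.80 in KO cells and -0.94 in WT cells (SE 0.36, adjusted p = 1.0 and 0.957, limma), where the WT OD duplicates were 11.75 and 10.73.

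The window of Ndufv3, the gene with the highest OD difference in both genotypes, is shown (RefSeq, GRCm38.p6, chr17:31519865-31520164, plus strand, 250 bases before to 50 after the start). It held 1 match to ACGTG, the core letters of sites bound by hypoxia-inducible factors, capitalised with the CCAAT matches. The match is no measure of binding, and its part in the OD difference was not tested.
Ndufv3: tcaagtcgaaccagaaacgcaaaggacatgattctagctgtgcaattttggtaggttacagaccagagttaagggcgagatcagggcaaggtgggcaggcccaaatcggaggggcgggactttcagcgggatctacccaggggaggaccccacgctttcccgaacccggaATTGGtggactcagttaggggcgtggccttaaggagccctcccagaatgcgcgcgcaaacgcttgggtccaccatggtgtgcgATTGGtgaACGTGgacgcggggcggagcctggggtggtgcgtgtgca
ACGTG was in 23.4% of the 77 windows of the chain and in 19.6% of all windows, on either strand.

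Glucose deprivation alone moved none of the 80 genes past the test in either genotype. Of all genes 0.00773% passed and 0.00773% were called in each genotype. At an unadjusted p under 0.05 there were 4 of 80 genes in KO cells and 1 of 80 in WT cells (limma). Of all genes 1.09% and 2.37% had such a p. No alternative setting called any of the 80. In KO cells 66 of the 80 differences were above 0, with a median of +0.14, while all measured genes had a median of -0.01. In WT cells 35 of 80 were above 0, with a median of -0.03. The highest was Cox7a2l, which links complexes III and IV, at +0.54 in KO cells, and Ndufv1, which binds NADH and flavin, at +0.37 in WT cells. The mean log2 signal over the 80 genes was 12.66 and 12.63 on the KO GD arrays and 12.59 and 12.43 on the untreated KO arrays (replicates 1 and 2), so both GD arrays lay above both untreated arrays. A median over the 80 genes varied between duplicate arrays with an SD of 0.0869, and the shift was not tested as a group.

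Between the genotypes, Ndufaf8 was the gene of the chain that differed throughout. Ndufaf8 is an assembly factor of complex I that in human cells acts with NDUFAF5. Untreated cells had 10.36 and 10.48 in KO and 11.18 and 11.68 in WT. TG cells had 10.11 and 10.14 in KO and 11.47 and 11.71 in WT, and TM cells had 10.40 and 10.27 in KO and 11.59 and 11.48 in WT. The highest of the 12 KO arrays was 10.79 (GD) and the lowest of the 12 WT arrays 11.01 (OD), so the genotypes did not overlap. The difference was -1.47 under TG, -1.20 under TM, -1.06 under OGD, -1.01 without treatment, -0.91 under OD and -0.82 under GD (SE 0.18 each). All 6 passed (limma, adjusted p between 8.54e-05 and 0.0153), and those in untreated, OGD, TG and TM cells were called. In untreated, GD, TG and TM cells both genotypes lay on the same chip pair. The untreated call was lost without untreated KO replicate 1 (-0.95) or untreated WT replicate 2 (-0.76, adjusted p = 0.0753), and the OGD call without WT OGD replicate 2 (-0.88). When only the arrays compared were fitted, the untreated and OGD calls were lost too (adjusted p = 0.158 and 0.203, limma), and no gene of the chain passed in untreated, OD, GD or OGD cells. A second probe of Ndufaf8 lay near background (mean log2 signal 7.51) and gave -0.47 to +0.01, so the difference rests on the bright probe. Taking the mean of both probes left differences of -0.60 to -0.80 in the 4 conditions with a call, all with an adjusted p under 0.05 but none at 2-fold. Under GD no gene of the chain passed as lower on that mean, so Ndufaf8 no longer passed there.

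The Ndufaf8 window is shown as that of the only gene of the chain that passed between the genotypes in all 6 conditions (RefSeq, GRCm38.p6, chr11:120098684-120098983, plus strand, 250 bases before to 50 after the start). It held 1 match to CCGGAAG and 4 to CCAAT, in capitals.
Ndufaf8: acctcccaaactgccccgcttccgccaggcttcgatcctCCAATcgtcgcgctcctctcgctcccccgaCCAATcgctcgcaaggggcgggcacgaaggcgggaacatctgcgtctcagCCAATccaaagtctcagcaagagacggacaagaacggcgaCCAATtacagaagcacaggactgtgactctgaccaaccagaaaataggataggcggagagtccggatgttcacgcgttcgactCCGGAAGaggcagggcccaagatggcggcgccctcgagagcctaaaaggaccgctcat

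Beside Ndufaf8, the differences between KO and WT cells that reached 2-fold were those of Cox6a2 under OGD, Cox6b1 under TG and Ndufaf4 under TM, the last of which did not pass (-1.05, SE 0.36, adjusted p = 0.0914, limma). In untreated cells Ndufs8, a core iron-sulphur subunit of complex I, was higher in KO cells, with 13.97 and 13.60 in KO and 13.24 and 12.95 in WT cells (+0.69, SE 0.19, adjusted p = 0.0453, limma). Ndufs3, another core subunit of complex I, was lower, with 12.12 and 11.61 in KO and 12.69 and 12.65 in WT cells (-0.81, SE 0.18, adjusted p = 0.0119, limma). Over the 6 conditions Ndufs8 differed by +0.20 to +0.69 and Ndufs3 by -0.40 to -0.81. The accessory subunit Ndufa3 was lower in KO cells too (-0.58, SE 0.14, adjusted p = 0.0268, limma), and its second bright probe gave -0.43. So 1 gene passed as higher and 3 as lower in untreated cells, where 3.79% and 2.66% of all genes did. Ndufaf8 was called, against 3.90% of all genes.

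Under OD 1 gene passed as higher in KO than in WT cells (Ndufs8, +0.68) and 5 as lower, where 3.81% and 3.0% of all genes did. The 5 were Ndufaf8, Ndufc1 (-0.72), Uqcrh (-0.69), Ndufa3 (-0.65) and Ndufc2 (-0.49). None was called, against 4.0% of all genes. An unadjusted p under 0.05 (limma) was seen for 19 of the 80 (23.8%) and for 19.2% of all genes. At 2-fold, background subtraction, leaving out KO OD replicate 2 and leaving out WT OD replicate 1 each called 1 gene, and the other settings none. The dimmer second probe of Ndufc2 gave +0.19. Under GD Ndufaf8 alone passed, as lower, where 3.42% of all genes passed as higher and 2.74% as lower. None was called, against 3.73%. An unadjusted p under 0.05 (limma) was seen for 14 of the 80 (17.5%) and for 17.5% of all genes. The replicate block gave 4 higher and 2 lower under GD, and 3 higher and 7 lower under OD.

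Under OGD 5 genes passed as lower in KO than in WT cells and none as higher, where 3.99% and 6.17% of all genes did. Cox6a2 had 8.55 and 9.15 in KO and 9.48 and 10.43 in WT cells, so the groups did not overlap, and the difference of -1.10 (SE 0.28, adjusted p = 0.0206, limma) was called. Leaving out KO OGD replicate 1 gave -0.81 and leaving out WT OGD replicate 2 gave -0.63, and the call was lost both times (adjusted p of 0.236 and 0.242, limma). The others were Ndufaf8, Atp5h, a peripheral stalk subunit of complex V (-0.88, SE 0.22), Ndufs3 (-0.79) and the accessory subunit Ndufc1 (-0.70), whose second bright probe gave -0.73. Cox6a2 and Ndufaf8 were called, against 5.20% of all genes. Without KO OGD replicate 1 or WT OGD replicate 2 there was 1 call, and without WT OGD replicate 1 there were 5. The replicate block gave 1 higher and 12 lower.

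Under TG 9 genes passed as lower in KO than in WT cells and 1 as higher, where 3.82% and 5.77% of all genes did. Cox6b1 had 13.26 and 12.89 in KO and 14.04 and 14.14 in WT cells (-1.01, SE 0.20, adjusted p = 0.00419, limma), and its second bright probe gave -0.87. The call was lost without KO TG replicate 2 (-0.83, adjusted p = 0.0658) and without WT TG replicate 2 (-0.97, adjusted p = 0.0512). Atp5h (-0.94, SE 0.22), Uqcrh (-0.74), Atp5k (-0.68), Ndufs5-ps (-0.57), Atp5d (-0.50), Ndufb11 (-0.49) and Ndufc2 (-0.43) were lower as well. By its name Ndufs5-ps is a pseudogene of the complex I subunit gene Ndufs5, and its probe may read either transcript. Ndufaf3 was higher, with 9.33 and 8.88 in KO and 8.28 and 8.42 in WT cells (+0.76, SE 0.15, adjusted p = 0.00431, limma). Ndufaf8 and Cox6b1 were called, against 5.12% of all genes. Over all 80 genes 24 differences were above 0 under TG, with a median of -0.20, while the median of all genes was -0.01. The mean log2 signal over the 80 genes was 12.43 in KO TG and 12.61 in WT TG cells, and the KO TG duplicates differed by 0.19.

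Under TM Ndufb9 and Atp5g2, a gene for subunit c of complex V, passed as higher in KO than in WT cells, where 6.31% of all genes did, and Ndufaf8 as lower, where 4.38% did. Ndufb9 had 12.29 and 11.50 in KO and 11.36 and 10.82 in WT cells (+0.81, SE 0.22, adjusted p = 0.0345, limma). Atp5g2 had 13.34 and 13.31 in KO and 12.71 and 12.63 in WT cells (+0.66, SE 0.20, adjusted p = 0.0495, limma). Ndufaf8 was called, against 5.85% of all genes. With a replicate block within each chip pair Ndufaf4 (-1.05) was called too, as 2 genes were without KO TM replicate 2 or WT TM replicate 1, and the replicate block gave 3 higher and 5 lower.

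The KO response to a stress did not differ from the WT response past the test for any of the 80 genes. By the chip reading above, only the KO response crosses the chip pairs for OD and OGD. Chip and genotype cannot be told apart in those 2 differences. Of all measured genes 0.0% were called for OD, 0.0% for GD, 0.0232% for OGD, 0.503% for TG and 0.642% for TM. Of the 80 genes 0, 2, 1, 6 and 0 had an unadjusted p under 0.05 for OD, GD, OGD, TG and TM (limma). Of all genes 1.13%, 0.742%, 5.72%, 8.06% and 8.59% did, in that order. No alternative setting called any of the 80. The Cox6a2 response to OGD was lower in KO cells by 0.85 (SE 0.39, unadjusted p = 0.0456, adjusted p = 0.957, limma), and its responses to TG and TM differed by +0.34 and -0.48. For Uqcrh and Cox6b1 the KO response to TG minus the WT response was -0.36 (SE 0.26) and -0.45 (SE 0.28). The lowest under TG was Ndufa4, a complex IV subunit, at -0.73 (SE 0.22, unadjusted p = 0.00508, adjusted p = 0.293, limma). The lowest under TM was Ndufaf4, at -1.03 (SE 0.51, adjusted p = 0.754, limma).

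By complex, the medians stayed within 0.34 of 0 in those 16 comparisons on the log2 scale. The lowest were those of the 7 measured complex I assembly factors in KO against WT cells, at -0.34 under OGD, -0.31 under TG and -0.30 under TM, and of the 16 complex V genes there under TG, at -0.29. The median of the 34 complex I subunits in KO against WT cells was -0.20 under OGD and -0.22 under TG, and +0.08 under GD. The 6 complex III genes had a median of -0.29 under OGD in WT cells and of -0.06 in KO cells. The 4 complex II genes, which form the enzyme shared with the citric acid cycle, ranged between medians of -0.18 and +0.19. Sdha, whose comparisons carry no weight, is 1 of these 4 genes and enters each of their medians. Cox4i2 likewise is 1 of the 13 complex IV genes. These are descriptions and were not tested as groups.

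**Figure D3:**
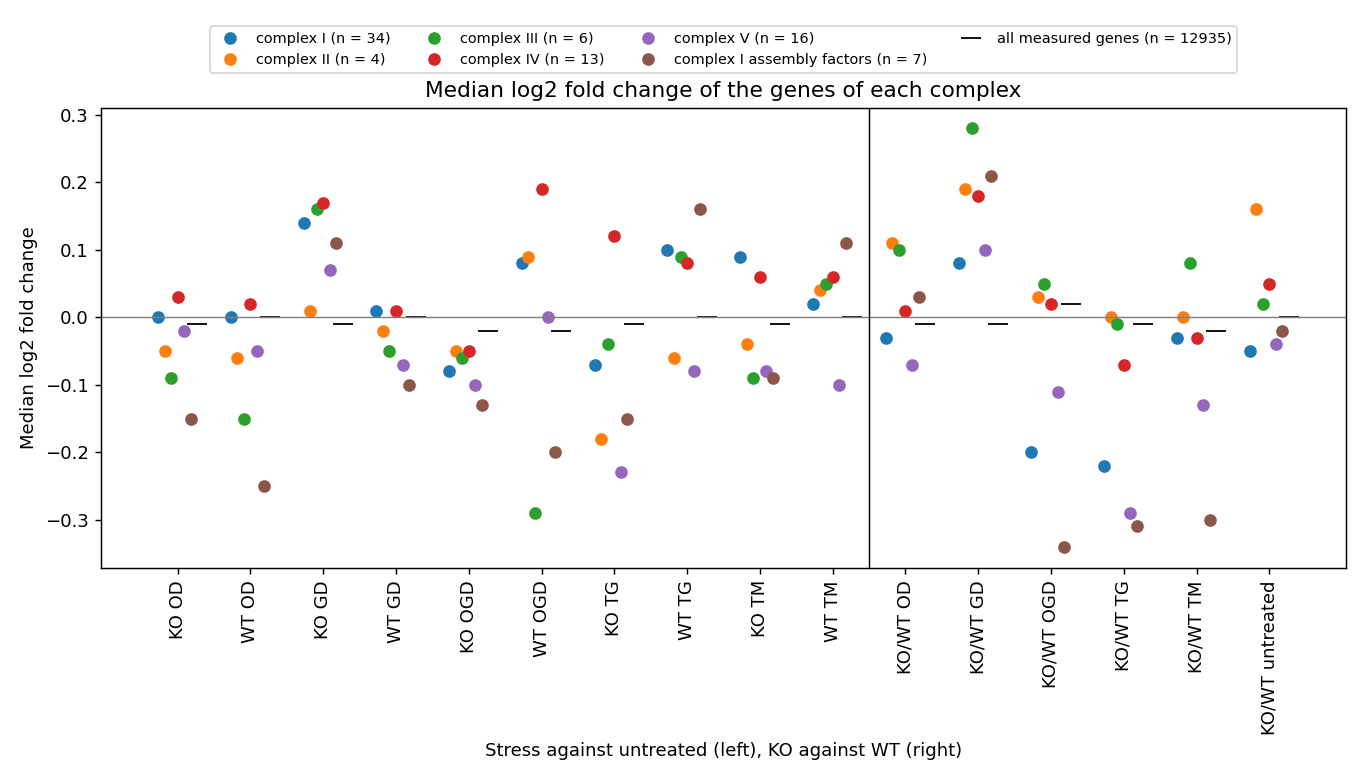
Median log2 fold change of the measured genes of each complex (coloured points), of the complex I assembly factors (brown) and of all measured genes (black dashes) in the 10 comparisons of a stress with untreated cells and the 6 of KO with WT cells. The points scatter within 0.34 of 0, and the assembly factors lie lowest in KO against WT cells under OGD, TG and TM.

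In the 12 comparisons where more than 1% of all measured genes differed by at least 2-fold, the share among the 80 genes was lower, as counted without a test. For OD and GD against untreated cells the share of all genes was under 1%, too low for a count over 80 genes to tell. In KO cells under TG 3.75% of the 80 genes and 7.31% of all genes differed by at least 2-fold, and in WT cells under OGD 1.25% and 6.16%. In untreated KO against WT cells the shares were 1.25% and 5.41%. Among those 4 comparisons only OD in WT cells had a gene of the chain at 2-fold, with 1.25% (Ndufv3 alone) and 0.642% of all genes. The 80 genes had stronger signals than most, and the part of signal strength in this difference was not tested.

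**Figure D4:**
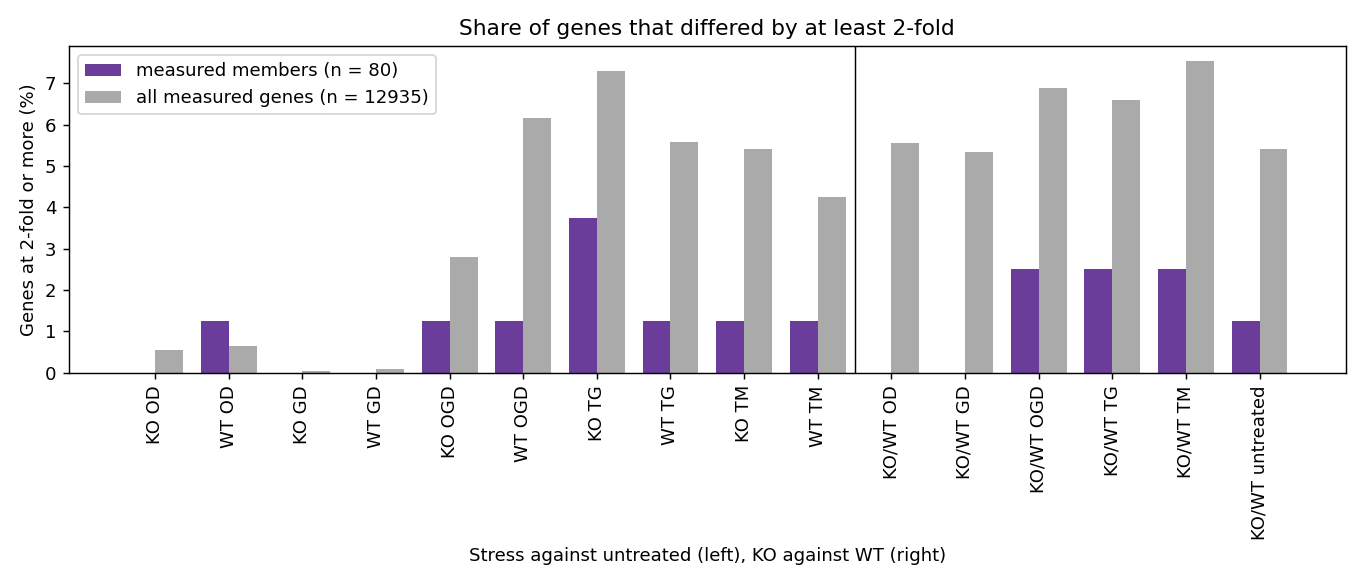
Share of genes whose difference was at least 2-fold, in percent, for the 80 measured genes of the chain (purple) and for all 12935 measured genes (grey), in the same 16 comparisons. The purple bar is the lower in all comparisons but OD in WT cells.

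The other lists of respiratory genes, named outside the pattern, are given by their counts, which under TG stand beside 6.44% of all genes passed as higher and 5.55% as lower in KO cells and 4.17% and 3.69% in WT cells. Of 7 measured subunit genes of mitochondrial DNA none passed under TG in either genotype. Under TM 1 passed as higher in KO cells, where 3.65% of all genes did, and 1 as lower in WT cells, where 1.91% did. Of these 7 genes 2 passed as higher in KO than in WT TM cells, where 6.31% of all genes did. Of 27 measured assembly factors outside the pattern 1 passed as higher and 1 as lower under TG in KO cells, and 2 as higher in WT cells. Of 73 mitochondrial ribosomal proteins 1 passed as higher and 6 as lower under TG in KO cells, and 1 as higher and 2 as lower in WT cells. Of 15 genes of the citric acid cycle and pyruvate dehydrogenase 2 passed as higher and 2 as lower under TG in KO cells, and 2 as higher and 1 as lower in WT cells. Among 12 regulators of mitochondrial gene expression 1 passed as higher and 1 as lower under TG in KO cells, and 1 as higher in WT cells. The oxygen-linked list, which held known targets of hypoxia, rose most under OGD, with 7 of 10 higher in KO cells and 5 of 10 in WT cells. Of all genes 1.54% and 4.25% passed as higher there.

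Some further genes stood at the end of a comparison without passing. The assembly factor Ndufaf1 gave the lowest value under OGD in WT cells, at -0.71 (SE 0.24, adjusted p = 0.0817, limma), and the highest in KO against WT OGD cells, at +0.73 (adjusted p = 0.0748). Its WT OGD duplicates were 11.37 and 10.42, the untreated WT arrays 11.59 and 11.62, and the KO OGD arrays 11.91 and 11.34, so both values rest largely on WT OGD replicate 2. Ndufb7, an accessory subunit of complex I, was lowest under TM in WT cells, at -0.77 (SE 0.27, adjusted p = 0.178, limma). The assembly factor Ndufaf2 was lowest under OGD in KO cells (-0.70, SE 0.34) and under GD in WT cells (-0.35), and Ndufaf4 under TM in KO cells (-0.82, SE 0.36). Cox6c, a complex IV subunit, was highest in KO against WT GD cells, at +0.77 (SE 0.27, adjusted p = 0.16, limma), with 14.34 and 14.77 in KO and 13.47 and 14.10 in WT cells, without overlap.

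Among paralogs, of Cox6a1 and Cox6a2 only the muscle isoform Cox6a2 was called, as higher under OGD, TG and TM. Of Cox6b1 and Cox6b2 the ubiquitous isoform Cox6b1 was called, as lower under TG in KO cells. Cox6b2 was not measured, so only Cox6b1 could be called in that pair. Cox7a1, the heart and skeletal muscle isoform of subunit 7A, stayed between 7.50 and 8.37 on the 24 arrays, around the background level, while Cox7a2 passed only under TG in KO cells. Cox7a2l passed nowhere. Its differences between stressed and untreated cells ran between +0.21 and +0.62, above 0 in all 10 comparisons, which share the untreated arrays of each genotype. Of the subunit c genes Atp5g2 passed in KO against WT TM cells and Atp5g3 in none. Cox4i1, the ubiquitous isoform of subunit 4, and Cox7b, the ubiquitous partner of Cox7b2, passed in none.

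The cultures expressed fibroblast genes, with 9 of 10 markers above background in some group and a summed signal between 59157 (WT TG) and 105354 (KO TM). Of the other lists, 0 of 4 endothelial and 0 of 3 blood markers were above background on both arrays of any group, and 1 of 5 fat, 2 of 4 neural and 2 of 6 muscle markers were.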

How the data were processed

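RNA was extracted with Trizol and RNeasy, treated with DNase I, turned into biotin-labelled cRNA and hybridised to Illumina Mouse-6 BeadChips, and the authors read the arrays with GenomeStudio (version and settings not given in the sources used here). The deposited intensity values of the series matrix, 1 array a sample, are on a linear scale and were already normalized by the authors; they were taken to log2 and not scaled again. A separate deposited table of un-normalized signals holds 48 columns whose names match no sample label, and none was used.

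The members and lists were chosen with earlier results of these data known. Of 45281 probes 34885 carried 1 gene symbol, 18 several and 10378 none in the platform annotation, and only the first were named. A background level of 7.88 (log2) was set at the upper tail of 0.01 of a normal distribution around the mode of all values, with its spread taken from the values below the mode, and 25901 probes above it on at least 1 array were kept, for 12935 genes. limma 3.58.1 in R 4.3.3 fitted 12 group means to all 24 arrays (lmFit, contrasts, eBayes), with Benjamini-Hochberg adjustment over the kept probes. A gene passed at an adjusted p under 0.05 and was called when its difference was also at least 2-fold. The genes to be named were those called in any comparison, the brightest and dimmest of each complex, the highest and lowest of each comparison and the paralog sets; the other genes that passed were named after their values were seen. The fit was tested first on simulated data with changes set in WT OD. Of 100 probes changed 2-fold 69 passed and 44 were called, and of 100 changed 4-fold 95 were called, with 2 false calls. A true 2-fold change could therefore be missed. The simulated noise was independent between arrays, unlike the shared deviations described below. Tables and figures were made with Python 3.11.15, numpy 2.4.6 and pandas 2.3.3.

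Samples with the same replicate number deviated together: all 66 pairs of groups had a correlation of their deviations above 0.1 (median 0.38, lowest 0.137, highest 0.768), within and between chip pairs. The replicate number was therefore also fitted as a block. Such a block can change the share of all genes that pass, and that share is given for the main fit only. Other alternatives were no filter on dim probes, a looser background level, only the arrays compared, the mean of a gene's probes, background subtraction, median centring, array weights, and leaving out each array compared. The number of arrays, 2 a group, limits the precision. Promoter windows came from RefSeq (GRCm38.p6).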

Additional observations from a re-analysis of the deposited data

How the results depend on the processing

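No difference of a single gene that was checked turned its direction under any alternative run. The balance of genes that passed as higher and as lower did turn in places. For KO against WT under GD, 0 higher and 1 lower became 4 and 2 with the replicate block. For KO against WT under TM, 2 and 1 became 3 and 5. The medians were less steady when 1 array was left out: 15 of those checks moved the median and 49 left it the same. With the other alternatives all 144 checks of a median stayed the same. The calls of Cox6a2 under TG and TM in both genotypes and of Uqcrh under TG in KO cells were kept in all 13 alternatives of each. At an adjusted p under 0.05 with no fold threshold the members called were 5, 4 and 4 under OGD, TG and TM in WT cells, 12 and 2 under TG and TM in KO cells, and, for KO against WT, 10 under TG, 3 under TM, 5 under OGD, 6 under OD, 1 under GD and 4 without treatment. Fitting only the arrays compared called 0 under OGD in KO cells, 0 under OGD in WT cells, and 0, 0 and 2 for KO against WT in untreated, OGD and TM cells. The mean over a gene's probes called 0, 1, 0 and 0 for KO against WT in untreated, OGD, TG and TM cells. Background subtraction called 7 under TG in KO cells, 2 under TG in WT cells, and 1, 1 and 4 for KO against WT under OD, OGD and TG. Array weights called 1 and 2 for KO against WT under OGD and TM, and the replicate block within chip pairs 2 under TM. The replicate block over all arrays changed no call. It moved counts of genes that passed, as given with the results where by over 1.5 times, and otherwise to 5 higher and 12 lower under TG in KO cells and, for KO against WT, to 2 and 4 in untreated cells and 1 and 12 under TG. When only the arrays compared were fitted, the genes that passed were 0, 1 and 1 under OGD, TG and TM in WT cells, 0, 9 and 2 in KO cells, and for KO against WT 0 under OD, GD and OGD and without treatment, 10 under TG and 6 under TM. With background subtraction they were 1, 3 and 1 in WT cells, 1, 8 and 1 in KO cells, and for KO against WT 1, 0, 1, 4 and 1 under OD, GD, OGD, TG and TM and 1 without treatment. Leaving out 1 array gave 0 to 1 calls under OGD in KO cells, 2 to 5 under TG in KO cells and 1 to 2 under TM in KO cells. In WT cells it gave 1 to 3 under OGD and 1 to 3 under TG. For KO against WT it gave 0 to 1 in untreated cells, 0 to 1 under OD, 1 to 5 under OGD, 1 to 2 under TG and 1 to 2 under TM. For single calls, Cox6a2 in KO against WT OGD cells was lost when only the compared arrays were fitted (adjusted p = 0.459, limma), with background subtraction (0.211) and with array weights (0.0975), over a range of 0.00155 to 0.459. Cox6a2 under OGD was lost in the fit of only the compared arrays in KO cells (0.258) and WT cells (0.281). The cause was not tested in any of these. Normalization of the un-normalized signals with neqc was not run, since their columns could not be tied to samples. With 2 arrays a group the SE of a difference between groups reached 0.39 on the log2 scale (Atp5e) among the 80 genes, which limits what could pass.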
